A study of Mus musculus with 4 samples.

Results

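The TRAV9 family of the mouse TCRα locus was examined in clone tables of splenic CD4 T cells. Its members were the clones whose best V match was a segment named TRAV9, TRAV9D or TRAV9N followed by a number. They made up 1393 of 189388 TCRα clones (0.736%) and 5019 of 871808 TCRα reads (0.576%), spread over 9 of the 11 TRAV9 copies that the RefSeq annotation lists. The cells came from the spleen of WT (C57BL/6) and Tet2/3 DKO mice with an average age of 25 days, with 2 libraries of each genotype that are labelled as biological replicates. Tet2/3 DKO mice were Tet2-/- Tet3 flx/flx CD4Cre: Tet2 was deleted in the germline, while Cre driven by CD4 regulatory sequences removed Tet3 in developing T cells, so that no library lacked only one of these genes. In both genotypes live CD4+ CD25- TCRβ+ cells that did not bind the αGalCer-loaded CD1d tetramer were sorted, which leaves out iNKT cells and CD25 expressing cells. Total RNA was amplified by a 5' RACE method (TCR SMART-seq), in which a template switch at the 5' end of the transcript lets the whole variable region be read without V primers.

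A TCRα chain is assembled in double positive thymocytes by joining a TRAV segment to a TRAJ segment, and the join forms CDR3, the loop that contacts the peptide. Rearrangement can be repeated on the same allele, with TRAV segments farther from the TRAJ cluster joined to TRAJ segments farther downstream. In C57BL/6 mice the central part of the TRAV array is duplicated and triplicated, and the copies carry the letters D and N. The V exon encodes framework regions 1 to 3 with CDR1 and CDR2 and the first bases of CDR3, which begins at the conserved cysteine. TET2 and TET3 are dioxygenases that oxidize 5-methylcytosine.

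The finding that dominated this family was a shortened transcript. Most TRAV9 clones lacked a stretch of 127 bases inside the V exon, and all of these carried the label TRAV9D-4. The V parts that define it are printed here 5' to 3' from the first base of framework region 1 to the last base before CDR3, each as the most abundant intact sequence of that label in the deposited tables. The capitals in TRAV9N-4 and TRAV9D-4 mark the stretch that was missing, and the capitals in the shortened form mark the codon at the new junction.
TRAV9N-4: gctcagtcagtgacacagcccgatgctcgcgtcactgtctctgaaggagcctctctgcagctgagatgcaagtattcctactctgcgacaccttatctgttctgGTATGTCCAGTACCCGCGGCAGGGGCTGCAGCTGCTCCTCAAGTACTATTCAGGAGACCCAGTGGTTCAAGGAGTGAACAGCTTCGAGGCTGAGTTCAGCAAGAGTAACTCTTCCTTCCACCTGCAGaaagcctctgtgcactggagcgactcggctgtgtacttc
TRAV9D-4: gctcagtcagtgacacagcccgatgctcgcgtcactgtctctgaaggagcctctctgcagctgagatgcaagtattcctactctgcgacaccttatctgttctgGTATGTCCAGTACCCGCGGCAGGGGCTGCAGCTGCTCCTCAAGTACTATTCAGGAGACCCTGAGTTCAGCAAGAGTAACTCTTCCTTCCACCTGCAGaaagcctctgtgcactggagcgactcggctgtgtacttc
Shortened form: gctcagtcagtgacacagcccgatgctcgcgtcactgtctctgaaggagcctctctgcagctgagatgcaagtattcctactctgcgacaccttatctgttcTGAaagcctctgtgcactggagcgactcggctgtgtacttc

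The missing stretch ran from base 105 to base 231 of TRAV9N-4, and it began with GT and ended with AG, the bases found at the ends of most introns. Intact TRAV9D-4 was identical to TRAV9N-4 except that it lacked 30 bases, 165 to 194 in TRAV9N-4 numbering, all inside that stretch. The shortened V part is therefore the same whichever of both copies it came from, and the sequence cannot tell them apart. Against intact TRAV9D-4 the stretch was 97 bases long. Read in the frame of framework region 1, bases 103 to 105 of the shortened form are TGA, a stop codon.

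Of 780 clones labelled TRAV9D-4, 748 were in the shortened form, and these held 2776 reads, 97.3% of the reads with that label. Intact TRAV9D-4 was found in 4 clones with 10 reads, of which 2 reads were in WT replicate 1, 8 in WT replicate 2 and 0 in the Tet2/3 DKO libraries. A further 28 clones with 67 reads had other forms, of which 8 clones with 31 reads lacked bases 68 to 231 and 2 clones with 8 reads lacked bases 105 to 235. TRAV9D-4 clones had a median length of 215 bases from framework region 1 to framework region 4, against 342 bases for TRAV9N-4 and 342 bases for the other 7 copies together.

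**Figure D1:**
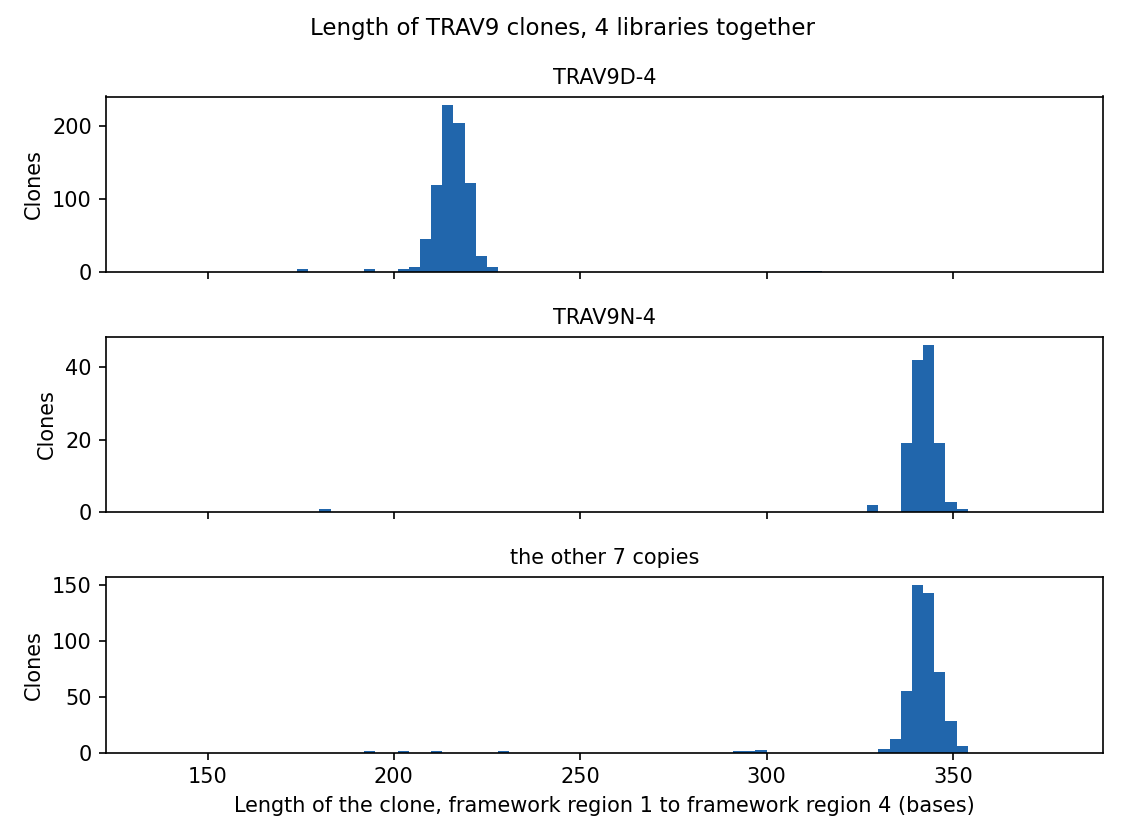
Number of clones (y axis) by length in bases from framework region 1 to framework region 4 (x axis) for clones labelled TRAV9D-4, TRAV9N-4 and the other 7 TRAV9 copies, all 4 libraries together. TRAV9D-4 clones lie around a median of 215 bases, while TRAV9N-4 and the other copies lie around a median of 342 bases.

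The shortened form held 699 reads in 200 clones of WT replicate 1, 732 reads in 183 clones of WT replicate 2, 651 reads in 189 clones of Tet2/3 DKO replicate 1 and 694 reads in 176 clones of Tet2/3 DKO replicate 2. Intact TRAV9N-4 held 89, 116, 78 and 216 reads in the same order. The shortened form thus outnumbered the intact one in every library, and Tet2/3 DKO replicate 2 had the most intact reads. Of all reads in the shortened form, intact TRAV9N-4 or intact TRAV9D-4, the shortened form took 88.5% for WT replicate 1, with a 95% Wilson interval from 86.1% to 90.5%. For WT replicate 2 it took 85.5%, with bounds of 82.998% and 87.7%. The Tet2/3 DKO libraries gave 89.3% for replicate 1 (bounds 86.8% and 91.3%) and 76.3% for replicate 2 (bounds 73.4% and 78.9%). The means were 87.0% ± 2.10 in WT and 82.8% ± 9.22 in Tet2/3 DKO (n = 2, SD), a difference of -4.22 percentage points that was smaller than the spread between replicates (two-sided p = 1 by exact permutation). It had the opposite sign, 2.30, without Tet2/3 DKO replicate 2. As the library preparation adds no molecular identifiers, these intervals cover counting error only.

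As a share of all TCRα reads the shortened form held 0.405% and 0.338% in the WT libraries and 0.334% and 0.241% for Tet2/3 DKO. The libraries of the genotypes did not overlap, but the nearest values differed by little, and the exact two-sided permutation test gave p = 0.333, the smallest value that 2 libraries against 2 can reach. Fewer cells with such a chain and less RNA per cell cannot be told apart in bulk libraries.

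No clone labelled as one of the other 7 copies was in the shortened form, with 0 of 394, 379, 360 and 531 reads in WT replicates 1 and 2 and Tet2/3 DKO replicates 1 and 2. A count of 0 allows a share of up to 0.761%, 0.792%, 0.833% and 0.565% of reads with these labels. As all shortened clones were labelled TRAV9D-4, whichever copy they came from, this count does not settle the copy of origin. CDR1 lies upstream of the missing stretch. Where it was read under the label TRAV9D-4, 99.9% of reads had YSATPY, the most common CDR1 of TRAV9N-4 and of none of the other 7 copies. The copies differ at the downstream end of the stretch. These 16 bases around it are shown from TRAV9N-4 and from TRAV9-4, with the last pair of bases of the stretch in capitals.
TRAV9N-4: ccacctgcAGaaagcc
TRAV9-4: ccacctgcGGaaagcc
Counted from 1 at the start of framework region 1, the change is A230G, with the base of TRAV9N-4 first. All 7 other copies carried A230G, so that AG at this place was found only in TRAV9N-4 and TRAV9D-4 among the 9 copies. The upstream end began with GT in all 9 copies. TRAV9-4 had 8 differences from TRAV9N-4 over 270 bases (97.0% identity) and TRAV9-2 had 6 (97.8%). TRAV9-1 had 49 differences from TRAV9N-4 (81.9%).

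The V-J joins of most shortened clones could be read although the tables list no CDR3 for them. They were read in 197 of 200 and 181 of 183 shortened clones of WT replicates 1 and 2, and in 187 of 189 and 175 of 176 of Tet2/3 DKO replicates 1 and 2. For intact sets, only clones with a listed CDR3 were counted. Counted from the cysteine codon, the join was in frame and free of a stop codon (an open join) in 59.4% of the joins read in WT replicate 1, 54.1% in WT replicate 2, 49.7% in Tet2/3 DKO replicate 1 and 62.3% in Tet2/3 DKO replicate 2. For intact TRAV9N-4 clones the corresponding values were 76.0%, 73.3%, 69.2% and 76.5%. Open joins were less frequent among shortened than among intact TRAV9N-4 clones in 4 of 4 libraries, by a mean difference of -17.4 percentage points (two-sided p = 0.125 by exact sign-flip permutation, adjusted p = 0.146 over 7 comparisons). With 4 libraries this test cannot go below 0.125. Among clones of other TRAV families open joins made up 85.8% to 86.5%, and the shortened form lay below them by a mean of 29.7 percentage points (difference -29.7). Open joins of shortened clones overlapped between the genotypes, with 56.8% ± 3.71 in WT and 56.0% ± 8.88 in Tet2/3 DKO (n = 2, SD, two-sided p = 1 by exact permutation).

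**Figure D2:**
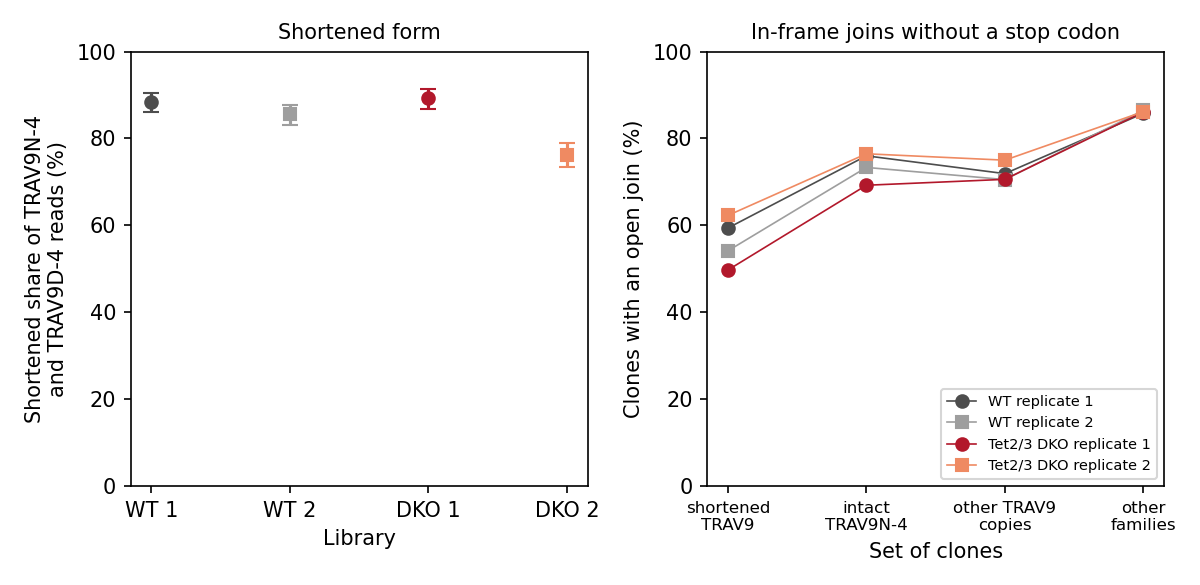
Left, share of the shortened form among TRAV9N-4 and TRAV9D-4 reads (y axis, percent) in each library (x axis), with 95% Wilson confidence intervals. Right, percent of clones with an open join (y axis) in shortened TRAV9 clones whose join was read, and in clones with a CDR3 of intact TRAV9N-4, the other TRAV9 copies and other TRAV families (x axis), 1 line for each library; the shortened form is lowest in every library.

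In 9 cases the same nucleotide join occurred in the shortened and in the intact TRAV9N-4 form of the same library, and all 9 were open. Tet2/3 DKO replicate 2 held the TRAJ23 join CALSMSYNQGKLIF with 47 intact and 12 shortened reads. WT replicate 2 held the TRAJ23 join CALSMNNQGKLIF with 10 intact and 23 shortened reads, and WT replicate 1 the TRAJ31 join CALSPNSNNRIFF with 4 intact and 6 shortened reads. Their CDR3 sequences are given with the bases that matched neither V nor J in capitals.
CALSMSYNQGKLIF: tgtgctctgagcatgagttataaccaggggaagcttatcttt
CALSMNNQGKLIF: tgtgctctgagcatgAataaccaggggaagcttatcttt
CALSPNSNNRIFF: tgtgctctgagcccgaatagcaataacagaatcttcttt
The first and the last of these had 0 bases between V and J, and the second had 1. Joins of this kind were 3 of 21 TRAV9N-4 joins in WT replicate 1, 2 of 27 in WT replicate 2, 2 of 24 in Tet2/3 DKO replicate 1 and 2 of 41 in Tet2/3 DKO replicate 2. Counted as shortened clones, those with a TRAV9N-4 join of their own library numbered 3, 2, 2 and 3 in WT replicates 1 and 2 and Tet2/3 DKO replicates 1 and 2. Those whose join matched a TRAV9N-4 join of another library only numbered 1, 2, 1 and 4.

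Usage of the family as a whole was low. TRAV9 ranked the 16th of 22 TRAV families by mean share of reads. Of the 172506 TCRα reads of WT replicate 1, TRAV9 took 1192, or 0.691% (95% Wilson bounds 0.653% and 0.731%). Of the 216457 reads of WT replicate 2 it took 1259, or 0.582% (bounds 0.550% and 0.615%). Tet2/3 DKO replicate 1 gave 1114 of 195046 reads, or 0.571% (bounds 0.539% and 0.606%), and replicate 2 gave 1454 of 287799, or 0.505% (bounds 0.480% and 0.532%). WT replicate 2 and Tet2/3 DKO replicate 1 lay close together, with overlapping intervals. The means were 0.636% ± 0.0773 in WT and 0.538% ± 0.0466 in Tet2/3 DKO (n = 2, SD), a log2 ratio of -0.24 (two-sided p = 0.333 by exact permutation). It was -0.11 without WT replicate 1 and -0.16 without Tet2/3 DKO replicate 2. Without the shortened clones it was -0.079, and over in-frame clones alone -0.11. In edgeR's quasi-likelihood test over 25 V families the adjusted p was 0.964 for TRAV9, 0 families (0%) passed the threshold of 0.05, and 4 families (16%), TRAV9 not among them, had an unadjusted p under 0.05. By clones, the share was 0.892% and 0.699% in the WT libraries and 0.727% and 0.661% for Tet2/3 DKO, and the genotypes overlapped (two-sided p = 0.667 by exact permutation). No TRAV9 clone was large. The most abundant one held 59 reads, and the median was 3 reads in each library.

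The reads were unevenly spread over the copies. TRAV9D-4, almost entirely in the shortened form, took 709 and 764 reads in the WT libraries and 676 and 704 reads for Tet2/3 DKO, which made it 56.8% of all TRAV9 reads. TRAV9-4 followed with 253 and 183 reads in the WT libraries and 197 and 226 for Tet2/3 DKO (17.1%). TRAV9N-4 took 89 and 116 reads in the WT libraries and 78 and 219 for Tet2/3 DKO. TRAV9-2 was nearly level over the libraries, with 53 and 57 reads in the WT libraries and 65 and 78 for Tet2/3 DKO. The rarest were TRAV9D-1 with 36 reads and TRAV9D-2 with 39 reads over the 4 libraries. TRAV9N-1 and TRAV9N-2 were the best match of 0 clones. The genotypes did not overlap in 3 of the 9 TRAV9 copies, against 22.8% of all V segments. TRAV9D-4 and TRAV9-1 were lower in both Tet2/3 DKO libraries, a pattern held by 14.9% of all V segments, and TRAV9D-3 was higher in both, a pattern held by 7.92%. In the edgeR test over 101 V segments 0 passed an adjusted p of 0.05 (0%), and 3 segments (2.97%) had an unadjusted p under 0.05, with 0 TRAV9 copies among them. The log2 fold change was -0.37 for TRAV9D-4, -0.92 for TRAV9-1 and 0.47 for TRAV9D-3, each with an adjusted p of 0.972 from edgeR, and 0.88 for TRAV9N-3 with the same adjusted p. Single libraries moved these values: TRAV9D-4 stood at -0.64 without Tet2/3 DKO replicate 1 and at -0.14 without replicate 2, and TRAV9-1 at -0.45 without WT replicate 2 and at -0.59 without Tet2/3 DKO replicate 2. TRAV9D-3 stood at 0.30 without WT replicate 1. The value of TRAV9N-3 rested on Tet2/3 DKO replicate 2, where it held 94 reads against 11 in replicate 1, and without that library it was -0.91. That of TRAV9D-3 was -0.65 for in-frame clones only.

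**Figure D3:**
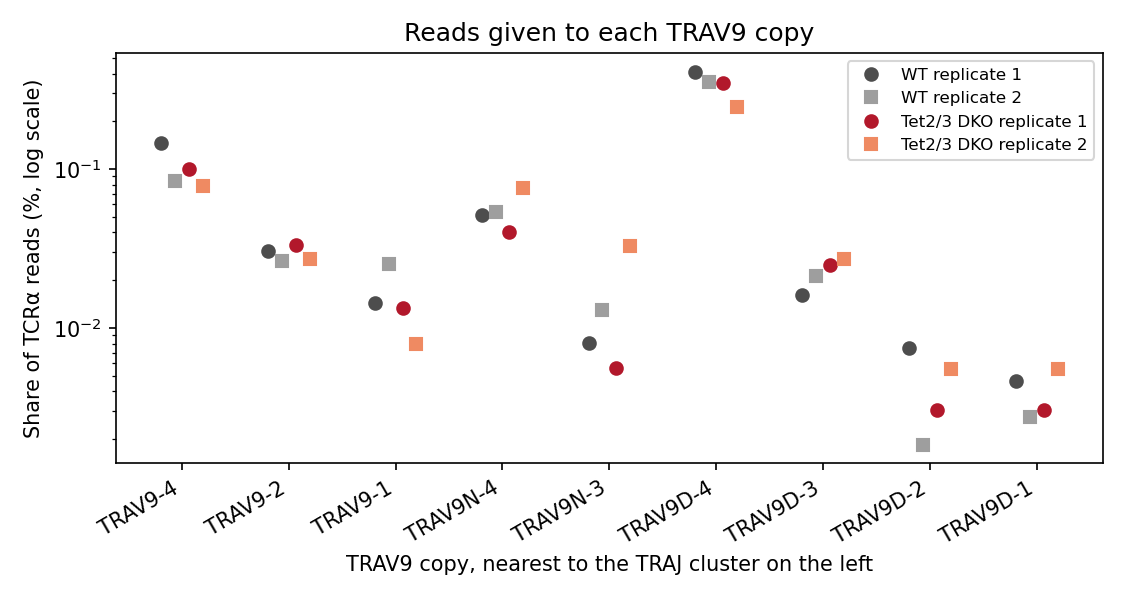
Share of TCRα reads in percent (y axis, log scale) given to each of 9 TRAV9 copies (x axis, ordered by distance to the TRAJ cluster), 1 point for each library. TRAV9D-4 holds the highest share in every library, and most copies show overlapping WT and Tet2/3 DKO points.

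Grouped by label, which for shortened clones does not settle the copy of origin, D copies held 63.6% and 65.1% of TRAV9 reads in the WT libraries and 66.2% and 56.0% for Tet2/3 DKO. N copies held 8.64% and 11.4% in the WT libraries and 7.99% and 21.5% for Tet2/3 DKO, and original copies 27.8% and 23.4% in the WT libraries and 25.9% and 22.5% for Tet2/3 DKO. None of these shares separated the genotypes (by exact permutation two-sided p = 0.667 for original copies and p = 1 for D and for N copies). With the shortened clones and all TRAV9D-4 clones left out, the order changed: original copies held 68.5% and 59.6% of the remaining reads in the WT libraries and 65.8% and 43.6% for Tet2/3 DKO. D copies then held 10.1% and 11.3% in the WT libraries and 13.9% and 14.7% for Tet2/3 DKO (two-sided p = 0.333 by exact permutation), and N copies 20.3% to 41.7%, below the original copies in each library.

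Near-identical copies limit these numbers. The V parts of TRAV9D-3 and TRAV9N-3 had 0 differences over 270 bases, and 92.0% of the reads labelled TRAV9D-3 matched another copy equally well. The label TRAV9N-3 went to clones whose V match reached base 13 of CDR3 or beyond in 34 of 35 cases, against 3 of 55 clones with a CDR3 for TRAV9D-3, so that this split depends on how far the V end was preserved. Summed, both held 42 and 74 reads in the WT libraries and 60 and 172 for Tet2/3 DKO. As shares of TCRα reads these were 0.0243% and 0.0342% against 0.0308% and 0.0598%, so that the genotypes overlapped and the separation seen for the label TRAV9D-3 was lost. TRAV9-1 and TRAV9D-1 differed by 2 bases (99.3% identity). Summed, they held 0.0191% and 0.0282% of TCRα reads in the WT libraries and 0.0164% and 0.0136% for Tet2/3 DKO, so that the genotypes stayed separate, as for TRAV9-1 alone.

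The copies also differed in the loops they encode. CDR1 read YSATPY in TRAV9N-4 and TRAV9D-4, YSGTPY in TRAV9-4 and TRAV9-2, YFGTPY in TRAV9D-3 and TRAV9N-3, SSGTPY in TRAV9D-2 and YGGSIY in TRAV9-1 and TRAV9D-1. CDR3 of in-frame clones most often began with CAL in TRAV9N-4 (96.9% of those reads), with CAV in TRAV9-4 (97.0%) and with CVL in TRAV9-2 (86.2%).

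TRAJ use differed between the copies. In the GRCm38 assembly the annotated copies lie on chromosome 14 over 884 kb, and the TRAJ cluster lies downstream of all of them. TRAV9-4 is the nearest, at chr14:53676196-53676628 and 478 kb from the first TRAJ segment. TRAV9N-4 lies at chr14:53294596-53295030 (860 kb from it), and TRAV9D-4 lies at chr14:52983456-52983770 (1171 kb). High TRAJ numbers lie near the TRAV array and low ones near the constant region. The mean TRAJ number over TRAV9-4 clones was 39.9 and 38.7 in the WT libraries and 40.3 and 39.8 for Tet2/3 DKO. For TRAV9N-4 it was 24.7 and 28.1 in the WT libraries and 19.9 and 25.1 for Tet2/3 DKO. TRAV9-4 was higher than TRAV9N-4 in 4 of 4 libraries, by a mean of 15.2 ± 4.04 (SD, n = 4, two-sided p = 0.125 by exact sign-flip permutation), and higher than other TRAV families by 10.5 ± 0.773 (SD, n = 4, two-sided p = 0.125 by exact sign-flip permutation). Over all clones of a copy the mean was 31.0 for TRAV9-2, 26.7 for TRAV9-1, 24.7 for TRAV9N-4, 19.1 for TRAV9N-3, 24.0 for TRAV9D-4, 19.5 for TRAV9D-3, 23.1 for TRAV9D-2 and 22.7 for TRAV9D-1, in order of distance. The values did not fall steadily, and the farthest copies, TRAV9D-2 and TRAV9D-1, were above TRAV9N-3 and TRAV9D-3. Across the 9 copies the rank correlation of distance with mean TRAJ number was -0.78, given as a description since the copies share the same libraries and some hold few clones. The copy of origin of most clones labelled TRAV9D-4 is unknown, and over the 8 other copies the value was -0.79.

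**Figure D4:**
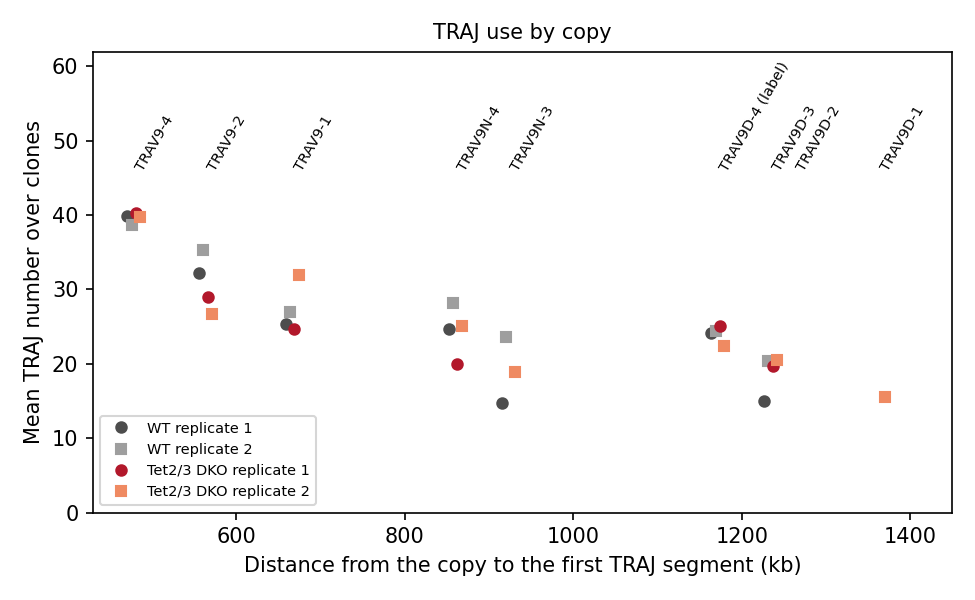
Mean TRAJ number over the clones of a copy (y axis) against the distance from the copy to the first TRAJ segment in kb (x axis), 1 point for each library with at least 5 clones. TRAV9-4, the nearest copy, lies between 38.7 and 40.3 in the 4 libraries, above all other copies; the position drawn for TRAV9D-4 is that of its label.

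Taken as a family and by reads, TRAV9 had a mean TRAJ number of 27.5 and 27.8 in the WT libraries and 27.3 and 25.98 for Tet2/3 DKO. It was lower than that of other families in 4 of 4 libraries, by 1.92 on average (mean difference -1.92, two-sided p = 0.125 by exact sign-flip permutation, adjusted p = 0.2 over 8 comparisons). Without the shortened clones the direction turned, with a mean difference of 1.07 that was positive in 3 of 4 libraries. Counting clones, the mean TRAJ number of the shortened form was 24.3 and 24.9 in the WT libraries and 25.1 and 22.4 for Tet2/3 DKO, against 31.0, 30.8, 30.7 and 28.7 for other TRAV9 clones. The shortened form was lower in 4 of 4 libraries, with a mean difference of -6.12 (two-sided p = 0.125 by exact sign-flip permutation, adjusted p = 0.146). It used TRAJ2 to TRAJ14 in 26.8% ± 3.38 of clones, against 12.8% ± 2.22 of other TRAV9 clones (SD, n = 4), and TRAJ48 and higher numbers in 2.96% ± 1.88, against 12.4% ± 0.799 (SD, n = 4). Both differences had the same sign in 4 of 4 libraries (two-sided p = 0.125 by exact sign-flip permutation, adjusted p = 0.25 over 10 comparisons). These other clones include 243 of TRAV9-4, the copy with the highest TRAJ numbers. Set against intact TRAV9N-4 alone, chosen after seeing the data, the shortened form differed by less than the spread between libraries. Intact TRAV9N-4 clones had a mean TRAJ number of 24.7, 28.1, 19.9 and 25.1 in WT replicates 1 and 2 and Tet2/3 DKO replicates 1 and 2. The mean difference, shortened minus intact, was -0.31 ± 3.87, negative in 3 of 4 libraries (SD, n = 4, two-sided p = 0.875 by exact sign-flip permutation, 3 comparisons). Intact TRAV9N-4 used TRAJ2 to TRAJ14 in 19.2% ± 7.74 of clones and TRAJ48 and higher numbers in 1.98% ± 2.29 (SD, n = 4), and for each the shortened form was higher in 2 of 4 libraries (two-sided p = 0.5 and p = 0.75 by exact sign-flip permutation). With 25 to 51 intact clones a library, these shares are coarse.

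**Figure D5:**
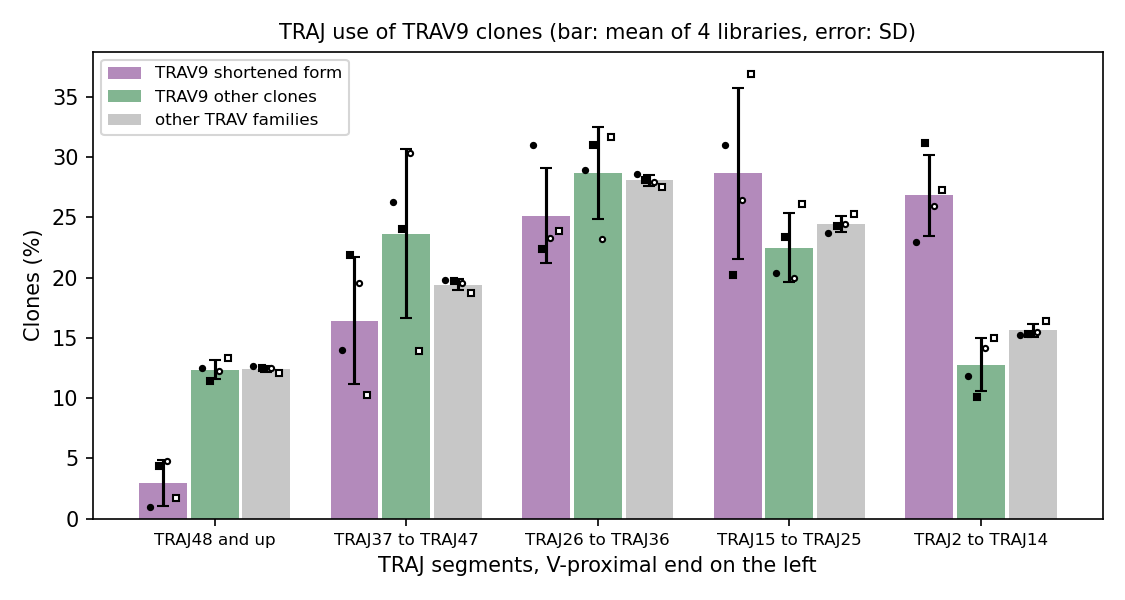
Percent of clones (y axis) in 5 bins of TRAJ segments ordered by position (x axis, TRAV side on the left) for shortened TRAV9 clones, other TRAV9 clones and other TRAV families. Bars are means of 4 libraries with the SD, filled points are WT and open points Tet2/3 DKO libraries; shortened clones are fewest at TRAJ48 and up and more frequent than the others at TRAJ2 to TRAJ14.

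TRAV9 clones used 43 TRAJ segments, of which 34 occurred in every library. By mean share of TRAV9 reads TRAJ31 led in WT, with 8.22% and 7.47%, and TRAJ12 led in Tet2/3 DKO, with 7.81% and 6.40%. Single libraries differed, since TRAJ22 led in WT replicate 1 with 8.56% and TRAJ23 in Tet2/3 DKO replicate 2 with 9.15%. In WT TRAJ12 held 5.29% and 3.18%. In other families TRAJ12 held between 3.33% and 3.71% of reads. Of 41 TRAV9-TRAJ pairs tested by edgeR among 810 pairs, 0 passed an adjusted p of 0.05 (0% of all pairs did), and 1 had an unadjusted p under 0.05, against 4.57% of all pairs (2.35% lower and 2.22% higher in Tet2/3 DKO). That pair was TRAV9 with TRAJ33, with 28 and 24 reads in the WT libraries and 7 and 2 reads for Tet2/3 DKO (log2 fold change -2.70, adjusted p = 0.877 from edgeR). The pairs next in order were TRAV9 with TRAJ35, with 20 and 7 reads in the WT libraries and 0 and 3 for Tet2/3 DKO (log2 fold change -3.56), and with TRAJ45, with 39 and 31 reads in the WT libraries and 10 and 23 for Tet2/3 DKO (log2 fold change -1.47). In the other direction the smallest p-values belonged to TRAJ2, TRAJ9 and TRAJ12, with log2 fold changes of 1.90, 0.67 and 0.49 and an adjusted p of 0.995 each from edgeR. Single libraries moved them: without WT replicate 1 the value for TRAJ9 was 0.0056, and without WT replicate 2 that for TRAJ12 was 0.072. The value for TRAJ2 was 1.00 without WT replicate 1 and higher without any other library. Among the lower pairs, TRAJ33 stood between -4.19 and -1.91 with 1 library left out, and TRAJ35, which has a library at 0 reads, between -6.85 and -2.39 as fitted values. The libraries of the genotypes did not overlap in 15 of the 41 pairs, against 31.2% of all 810 pairs. They were lower in Tet2/3 DKO in 11 pairs (16% of all pairs) and higher in 4 (15.2% of all pairs). TRAV12, TRAV6 and TRAV7 had the TRAJ profiles nearest to that of TRAV9 among 15 other families with at least 1000 reads in every library. TRAJ shares were first averaged over the 4 libraries. The summed absolute difference between these mean profiles, scaled to lie between 0 and 1, was 0.133, 0.152 and 0.156, where 0 means the same profile. Between the profiles of single libraries, which were not averaged, it was 0.225 to 0.300 within TRAV9 itself, on far fewer reads. The values within TRAV9 are therefore not directly comparable with those between families.

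Where the tables list a CDR3, the TRAV9 joins were less often open than those of other families. A CDR3 was listed for 608 of the 1393 TRAV9 clones, of which 439 were in frame without a stop codon. Of the 785 clones without one, 748 were in the shortened form (95.3%). The share of TRAV9 reads without a CDR3 was 60.2% and 60.9% in the WT libraries and 60.9% and 49.2% for Tet2/3 DKO, against 1.76% to 3.01% of the reads of other families. Among reads with a CDR3, open joins held 74.7% and 70.1% in the WT libraries and 66.5% and 74.9% for Tet2/3 DKO, against 89.2% to 89.8% in other families. The family lay below the others in 4 of 4 libraries, with a mean difference of -18.0 percentage points (two-sided p = 0.125 by exact sign-flip permutation, adjusted p = 0.2 over 8 comparisons), and the genotypes overlapped. By copy, open joins were found in 40 of 42 TRAV9-1 clones with a CDR3, 14 of 15 for TRAV9D-1, 56 of 76 for TRAV9-2, 168 of 240 for TRAV9-4 and 98 of 132 for TRAV9N-4. The other labels had 32 of 55 for TRAV9D-3, 23 of 35 for TRAV9N-3, 7 of 9 for TRAV9D-2 and 1 of 4 for TRAV9D-4. As TRAV9D-3 and TRAV9N-3 are split by how far the V end was preserved, their values are not traits of separate copies.

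The mean CDR3 length of in-frame TRAV9 reads was 13.4 and 13.3 amino acids in WT and 13.5 and 13.6 in Tet2/3 DKO. The difference of 0.187 was larger than the pooled SD of 0.0774, and the genotypes did not overlap (two-sided p = 0.333 by exact permutation). With each clone counted once the difference was 0.0722 and the genotypes overlapped. The reads of other families also separated, with 13.36 and 13.37 amino acids in the WT libraries and 13.40 and 13.45 for Tet2/3 DKO. Against other families the mean difference was 0.0527 amino acids, positive in 3 of 4 libraries. CDR3 of 13 or 14 amino acids made up 69.9% ± 7.82 of in-frame TRAV9 clones and 60.8% ± 0.326 of those of other families (SD, n = 4). WT replicate 2 went the other way, with 58.4% for TRAV9, below the 60.5% to 61.1% of other families.

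By reads, TRAV9 joins had a mean of 3.16 and 3.67 inserted bases in the WT libraries and 3.69 and 3.02 for Tet2/3 DKO, against 1.990 to 1.999 in other families. Their V ends had lost 0.985 and 0.575 bases in the WT libraries and 0.525 and 0.551 for Tet2/3 DKO, against 1.91 to 2.07 in other families. Both differences held in 4 of 4 libraries (two-sided p = 0.125 by exact sign-flip permutation). These counts depend on where the V match was ended. In TRAV9-2 it stopped at base 3 of CDR3 in 75 of 76 clones, and all 76 were listed with 0 V bases removed. Yet 66 of the 76 shared the same first 9 bases, and a median of 10.5 bases was listed as inserted. In TRAV9-4, which holds the most clones with a CDR3, the match stopped at base 12 in 150 of 240 clones, 206 were listed with 0 V bases removed, and the median of inserted bases was 3. In TRAV9N-4 the V match reached base 13 or beyond in 61 of 132 clones. The mean over TRAV9N-4 clones was 1.64 and 3.10 inserted bases in the WT libraries and 1.15 and 1.82 for Tet2/3 DKO. This was lower than in other families in 3 of 4 libraries (two-sided p = 0.5 by exact sign-flip permutation). By clones, TRAV9N-4 also had fewer V bases removed than other families in 4 of 4 libraries. That mean difference was -0.97 (two-sided p = 0.125 by exact sign-flip permutation). The share of TRAV9 reads without an inserted base was 18.1% and 10.2% in the WT libraries and 23.6% and 37.3% for Tet2/3 DKO, a difference of 16.3 percentage points with no overlap (two-sided p = 0.333 by exact permutation, adjusted p = 0.867 over 13 comparisons). With each clone counted once the difference was 10.3 and the genotypes overlapped, at 21.8% and 10.3% in the WT libraries and 20% and 32.7% for Tet2/3 DKO. Without Tet2/3 DKO replicate 2 it was 9.47 by reads.

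Of 361 in-frame chains, defined by TRAJ segment and CDR3 amino acids, 345 occurred in 1 library, 15 in 2, 1 in 3 and 0 in all 4. Chains in at least 2 libraries thus made up 4.43% for TRAV9 and 24.0% for the other TRAV families together, which hold far more clones, and those in all 4 made up 0% and 4.40%. The chain in 3 libraries was the TRAV9N-4 and TRAJ31 chain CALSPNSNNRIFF described above, with 4 and 3 reads in WT and 6 reads in Tet2/3 DKO replicate 2, and it had 1 nucleotide sequence. Among clones with a listed CDR3, the most abundant in-frame TRAV9 clone of WT replicate 1 was TRAV9-4 with TRAJ27 (32 reads). In WT replicate 2 it was TRAV9-2 with TRAJ43 (15 reads). For Tet2/3 DKO it was TRAV9-4 with TRAJ49 in replicate 1 (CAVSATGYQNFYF, 11 reads) and TRAV9N-4 with TRAJ23 in replicate 2 (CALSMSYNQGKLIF, 47 reads). With clones that lack a listed CDR3 included, the largest clones of the last 3 libraries were shortened ones, with 23, 19 and 59 reads. The join of the clone with 23 reads was the open join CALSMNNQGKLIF described above. Those of the clones with 19 and 59 reads were not open. A chain of this family that was prominent in transferred cells of the same study pairs TRAV9N-3 or TRAV9D-3 with TRAJ23. In the spleen libraries that pair had 0 and 3 reads in the WT libraries and 0 and 11 reads for Tet2/3 DKO. All 4 clones of this pair in Tet2/3 DKO replicate 2 were in frame, and of the 2 clones in WT replicate 2, 0 were. A count of 0 allows 0.00174% of TCRα reads in WT replicate 1 and 0.00154% in Tet2/3 DKO replicate 1.

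The sort was checked with chains of cell types that it should leave out or that are rare. An iNKT-like chain (a TRAV11 segment with TRAJ18 and a CDR3 of 15 amino acids) held 0.0620% and 0.0541% of reads in the WT libraries and 0.0302% and 0.0191% for Tet2/3 DKO. A MAIT-like chain (TRAV1 with TRAJ33) held 0.00869% to 0.0287%. Markers of other cell types are not measured in TCR libraries, and the part of such cells in the TRAV9 results was not tested.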

How the data were processed

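Clone tables of the TCRα chain from 4 libraries (2 WT, 2 Tet2/3 DKO) were analysed. Per the study's methods and the processing notes, the authors trimmed reads with fastp 0.21.0 after bcl2fastq 2.20.0, assembled and annotated clones with MiXCR (preset for the SMARTer mouse TCR kit), and named mm10 as the genome build. For each clone the authors deposited a count of reads and its fraction of the reads of the chain, and no molecular identifiers were used. The deposited fraction equalled the share computed from the counts and was used only for that check. The first V and J match was used without its allele.

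Computed here from the counts were shares of reads and clones, mean TRAJ number, CDR3 length and frame, and bases removed and inserted at the join as the anchor points of the tables give them. Missing stretches were found by reading each TRAV9 clone along the most abundant intact sequence of its copy (TRAV9N-4 for clones labelled TRAV9D-4) up to the break and searching for the bases that follow, and the search was tested on simulated sequences. Copies were placed with the RefSeq table of GRCm38.p6, in which all 9 observed copies were found. Library values were compared by exact two-sided permutation tests over 6 assignments, and TRAV9 against other families within each library by exact two-sided sign-flip tests over 16 signs. V segments, families and family-TRAJ pairs with at least 10 reads were tested by the quasi-likelihood test of edgeR 4.0.16 (library size set to all TCRα reads, Benjamini-Hochberg adjustment, threshold 0.05), with DESeq2 1.42.0 as an alternative. The fits were tested on simulated data. Python 3.11.15, numpy 2.4.6, pandas 2.3.3, scipy 1.17.1 and R 4.3.3 were used.

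Depth was 172506 to 287799 TCRα reads per library, so that a TRAV9 copy with under 20 reads in a library is known only coarsely. Alternatives were at least 2 reads per clone, each clone counted once, drawing down to 172506 reads (mean of 20 draws), in-frame clones, clones with a CDR3, removal of the 10 most abundant clones, division of tied V matches, other normalizations and filters, a replicate block, and each library left out in turn. The members, lists and tests were chosen with earlier results of these data known, and the analysis of the shortened form and the setting without it were chosen after seeing the data. Copies, the leading TRAJ segments, up to 3 pairs in each direction, the leading and shared clones and the 3 nearest families were named by rule. TCRβ tables were not used here. With 2 biological replicates per genotype the spread is poorly known, and whether each came from 1 mouse is not given in the sources used here.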

Additional observations from a re-analysis of the deposited data

How the results depend on the processing

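Of 438 recomputed values for 41 results, 400 were counted as unchanged, 32 changed sign and 6 counts of calls moved by over 1.5 times. For measures with 1 value per library, unchanged meant the same sign only, and no p-value was compared. For fold changes from edgeR it meant the same sign and the same side of the threshold. For counts of calls it meant a move of at most 1.5 times. The cause was not tested unless stated. Depth limits the rarer copies most, since TRAV9D-1 and TRAV9D-2 held at most 16 reads in a library. The difference in D copies between genotypes, -3.29 percentage points, was 1.95 for clones with a CDR3 and 2.85 without the shortened clones, which are all labelled TRAV9D-4. The mean TRAJ number against other families, -1.92, was 1.70 for in-frame clones, 1.41 for clones with a CDR3 and 1.07 without the shortened clones, and all 3 settings leave those clones out. The in-frame share was 1.67 percentage points higher in Tet2/3 DKO with each clone counted once. By edgeR, TRAV9-2 changed to -0.19, TRAV9D-1 to -0.0067 and TRAV9 with TRAJ9 to -0.18 (log2) with each clone counted once, TRAV9D-1 to -0.014 and TRAV9D-3 to -0.65 for in-frame clones, and TRAV9D-2 to 0.087 with the replicate block. With the replicate block 3 of 810 pairs passed the threshold, as did 6 of 902 without a filter on low counts, and 1 of 24 families passed for in-frame clones, none of them TRAV9. Replicate numbers do not pair the libraries: deviations of same-numbered libraries correlated at 0.09 over 101 segments, 0.57 over 25 families and -0.09 over 810 pairs, and with 2 numbers and no label that ties them the replicate block is given only here. It called 0 segments and 0 families. DESeq2 gave 0 calls in each table, with 3, 1 and 38 unadjusted p under 0.05 for segments, families and pairs.

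Leaving out each library in turn changed the sign of these results. Differences between Tet2/3 DKO and WT (percentage points, or bases for the joins) were -3.60 to 0.74 for the share of original copies among TRAV9 reads, -8.38 to 1.80 for the share of D copies among TRAV9 reads, -2.05 to 11.49 for the share of N copies among TRAV9 reads, -5.89 to 2.53 for TRAV9 in-frame share of reads, -11.33 to 0.28 for TRAV9 share of reads without a CDR3, -0.63 to 0.16 for J bases removed at the TRAV9 join, -0.39 to 0.28 for bases inserted at the TRAV9 join and -10.73 to 2.30 for the shortened share of TRAV9N-4 and TRAV9D-4 reads. Log2 fold changes from edgeR were -0.071 to 0.23 for TRAV9-2, -0.71 to 0.085 for TRAV9-4, -0.23 to 0.65 for TRAV9D-1, -0.77 to 1.23 for TRAV9D-2, -0.91 to 1.61 for TRAV9N-3 and -0.40 to 0.53 for TRAV9N-4. Other values kept their sign but moved by over 1.5 times: -0.36 to -0.11 (log2) for the TRAV9 share of reads, -0.36 to -0.0096 for its share of clones, -1.68 to -0.40 for the mean TRAJ number, -0.45 to -0.037 for V bases removed, 9.47 to 23.1 percentage points for reads without an inserted base, and, against other families, 0.024 to 0.094 amino acids for CDR3 length, -0.42 to -0.15 for J bases removed and -13.98 to -4.66 percentage points for reads without an inserted base. By edgeR these were -1.33 to -0.45 for TRAV9-1, 0.30 to 0.68 for TRAV9D-3, -0.64 to -0.14 for TRAV9D-4 and, with TRAV9, 1.00 to 6.37 for TRAJ2 (0 WT reads left at the highest), 0.0056 to 2.02 for TRAJ9, 0.072 to 1.05 for TRAJ12, -4.19 to -1.91 for TRAJ33 and -6.85 to -2.39 for TRAJ35. Counts of calls were 0 to 4 for TRAV segment usage and 0 to 28 for TRAV family and TRAJ pair usage, and the highest of them came without Tet2/3 DKO replicate 1. When a genotype keeps 1 library, that library is assumed to vary like the other group.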
